A study of Homo sapiens with 4 samples.

Results

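The 31 genes described here encode the enzymes of cholesterol and fatty acid synthesis and the proteins that control them. They were chosen by symbol from the 19901 protein-coding genes in the TT-Seq count table: 5 genes that control SREBP, 7 of the mevalonate arm, 11 of the squalene and sterol arm, 1 sterol transport gene and 7 of the fatty acid arm. The rule itself goes by symbol and reads no measured value, but the list was chosen with earlier results of these data known. TT-Seq captures the transcripts that take up 4-thiouridine (4sU) within minutes, so its counts follow new transcription rather than the stock of RNA in the cell. All libraries came from HCT116, a colon cancer cell line, in its derivative KAP1_dTAG_CloneD5, a single clone in which endogenous KAP1 carries a degron tag. The control group received the vehicle DMSO for 8 h, and the other group received dTAG, the ligand that sends tagged KAP1 to the proteasome, for 8 h. Both were labeled with 500 μM 4sU for 10 min in serum-containing medium, with 2 libraries per group. The comparison asks how nascent transcription of lipid synthesis genes differs when KAP1 is depleted.

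Cholesterol is built from acetyl-CoA through mevalonate, isoprenoid units, squalene and lanosterol, and fatty acids are built from the same acetyl-CoA by carboxylation, condensation, elongation and desaturation. The transcription factors SREBP-1 and SREBP-2, encoded by *SREBF1* and *SREBF2*, are held in the endoplasmic reticulum when sterols are plentiful and travel with their escort SCAP to the Golgi, where they are cleaved and released, when sterols run low. INSIG1 and INSIG2 hold SCAP back, which makes this pathway a textbook case of end-product feedback on transcription.

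Gene counts summed to between 93105627 and 102314741 per library, and 12612 genes had at least 50 counts in all 4 libraries and were tested. Levels are CPM, counts scaled to a common library size by edgeR's TMM method. A gene was called with an adjusted p under 0.05 in the edgeR quasi-likelihood test (Benjamini-Hochberg, over the 12612 genes). In bulk libraries, fewer cells that transcribe a gene and less RNA per cell cannot be told apart. *TRIM28*, which encodes KAP1, was called lower, with a log2 fold change of -0.37 (SE 0.092, adjusted p = 0.0189, edgeR quasi-likelihood test), dTAG over DMSO. Its RNA is no check of the labels, since dTAG acts on the protein and not on the transcript. The epithelial markers *EPCAM*, *CDH1*, *KRT8*, *KRT18* and *KRT19* passed the count minimum, while the intestinal markers *CDX1* (0 to 4 counts) and *VIL1* (1 to 15 counts) did not. Of the markers of other cells, the leukocyte gene *PTPRC* had 0 to 1 count, *COL3A1* of fibroblasts 1 to 5, *ALB* of hepatocytes 3 to 15 and *PECAM1* of endothelium 24 to 39. Only *COL1A1* among these markers of other cells passed the minimum.

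Of the 31 genes, 30 passed the count minimum, with 548 counts at the lowest and 89328 at the highest. The exception was *CYP51A1* (ENSG00000001630.15), lanosterol demethylase, on chromosome 7 of hg38 from 92112150 to 92142952. Its counts were 5 and 7 with DMSO and 7 and 11 with dTAG. Of its 30803 bases, 30795 lie inside *LRRD1* on the same strand, and *LRRD1* itself had 76 to 125 counts. Across the table, 420 genes lie wholly inside another gene on the same strand, and the highest count among them was 0. By contrast, 245 of the 608 genes wholly inside a gene on the opposite strand passed the minimum. How counting treated shared bases is not stated in the sources used here, so the counts of *CYP51A1* cannot be read as its transcription, and it is left out of every value below.

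Sequence context at the promoters was read from the RefSeq windows of 250 bases before to 50 bases after each start on GRCh38.p14, which hold 27 of the 31 genes. A window for *SQLE*, *ACAT2*, *FASN* and *FDFT1* was not used here. On either strand, the sterol regulatory element TCACNCCAC, the letters bound by SREBP, stood in the windows of 1 of 27 genes and of 1.53% of all 15297 genes with a window. The letters CCAAT, bound by NF-Y, a common partner of SREBP, stood in 20 of 27 (74.1%) against 42.5% of all genes. The letters GGGCGG, a GC box of the SP1 kind, stood in 26 of 27 (96.3%) against 65.1%. The 15297 genes were not limited to those that passed the count minimum, while 30 of the 31 pathway genes passed it. A match is a description of letters, not a site in use. The 4 stretches below show the single sterol regulatory element, which lies in the *SREBF2* promoter itself, and 3 promoters with 2 or more CCAAT matches, with the matches in capitals. The *SREBF2* stretch (chr22:41832962-41832991, plus strand) holds its match 133 bases before the start. The *MSMO1* stretch (chr4:165327419-165327621, plus strand) holds 3 CCAAT matches, the *NSDHL* stretch (chrX:152830813-152830965, plus strand) 4, of which the last 2 share bases, and the *STARD4* stretch (chr5:111512591-111512785, minus strand) 2.
SREBF2: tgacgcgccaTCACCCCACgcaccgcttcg
MSMO1: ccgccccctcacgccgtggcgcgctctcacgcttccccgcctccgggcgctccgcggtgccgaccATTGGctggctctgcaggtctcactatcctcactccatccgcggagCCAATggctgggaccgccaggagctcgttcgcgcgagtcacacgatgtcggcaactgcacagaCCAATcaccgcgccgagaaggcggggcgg
NSDHL: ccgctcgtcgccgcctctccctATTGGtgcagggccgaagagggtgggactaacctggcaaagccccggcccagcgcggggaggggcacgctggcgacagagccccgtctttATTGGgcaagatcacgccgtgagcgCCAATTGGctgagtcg
STARD4: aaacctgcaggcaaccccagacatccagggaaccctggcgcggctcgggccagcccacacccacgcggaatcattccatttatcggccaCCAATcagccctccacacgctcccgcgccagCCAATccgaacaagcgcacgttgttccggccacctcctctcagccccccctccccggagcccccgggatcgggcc

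With DMSO, lipid synthesis genes were transcribed above the middle of the tested genes. Per kilobase of gene interval, their median level was 2.44 CPM, against 1.06 CPM for all tested genes, and 25 of 30 lay above the 50th percentile of tested genes. *SCD*, the desaturase that makes oleate, was the highest at 40.2 ± 0.384 CPM per kilobase (SD, n = 2). *FASN*, fatty acid synthase, followed at 24.5 ± 0.259 and *SREBF1* at 11.97 ± 1.72 (SD, n = 2). These top 3 levels lay farther apart than their SDs. *INSIG1*, *FDFT1* (squalene synthase) and *FDPS* (farnesyl diphosphate synthase) came next, at 5.71 ± 0.142, 5.27 ± 0.249 and 5.03 ± 0.0104 CPM per kilobase. *FDFT1* and *FDPS* differed by less than the SD of *FDFT1*, while *INSIG1* and *FDFT1* lay farther apart than either SD. At the other end, *INSIG2* stood at 0.41 ± 0.0722 CPM per kilobase, the 26.3rd percentile of tested genes, and *FADS2*, the delta-6 desaturase, at 0.649 ± 0.0641. *INSIG1* was thus among the 6 genes above the 90th percentile of tested genes and its paralog *INSIG2* the lowest of the pathway.

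**Figure D1:**
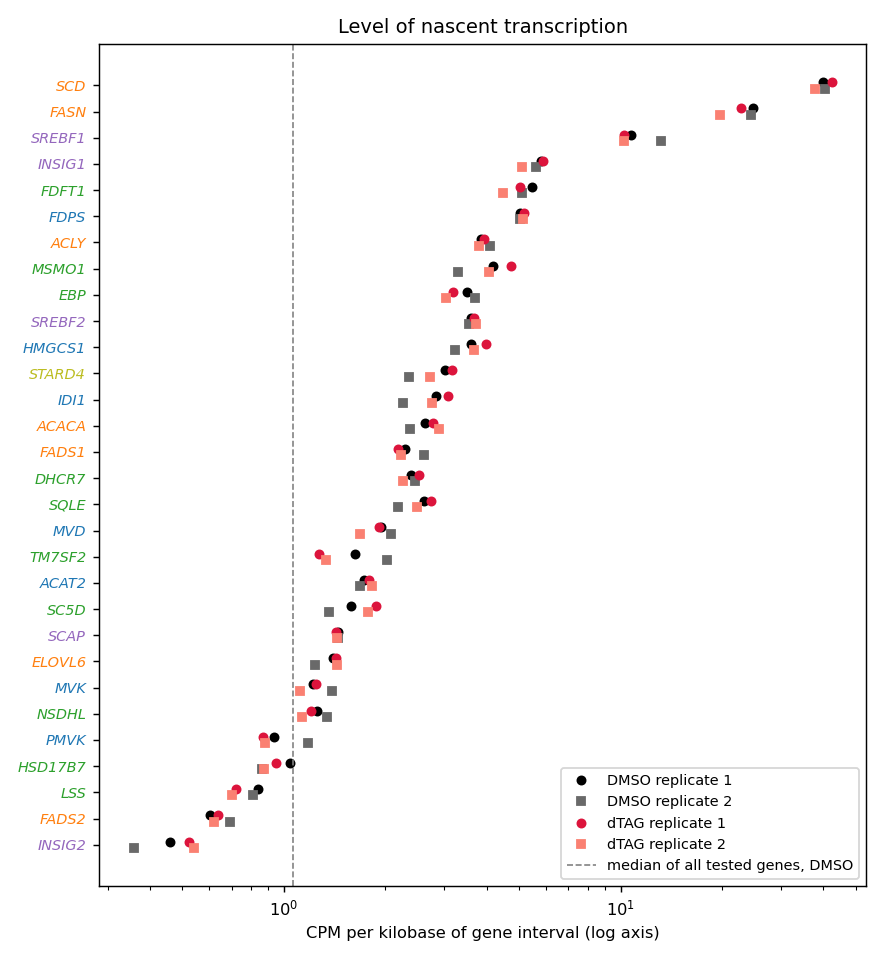
Level of the 30 tested lipid synthesis genes in CPM per kilobase of gene interval (log axis), 1 point per library, with gene names colored by role (purple for SREBP control, blue for the mevalonate arm, green for the squalene and sterol arm, olive for sterol transport, orange for the fatty acid arm). *SCD*, *FASN* and *SREBF1* stand apart at the top, *INSIG2* is lowest, and the 4 libraries of a gene lie close together against the span between genes.

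No gene of the pathway passed the test for a change with KAP1 depletion. None of the 30 tested genes was called, 0 higher and 0 lower with dTAG, in the edgeR quasi-likelihood test (Benjamini-Hochberg), where 7.1% of all tested genes were called, 3.44% higher and 3.66% lower. At an unadjusted p under 0.05, 7 of 30 genes passed against 26.6% of all tested genes. *INSIG2*, *MSMO1* and *SC5D* were the 3 on the higher side (12.3% of all tested genes), and *SREBF1*, *LSS*, *TM7SF2* and *EBP* the 4 on the lower side (14.3%). DESeq2 called 2 of the 30, *SC5D* higher and *TM7SF2* lower, against 10.1% of all tested genes. Without DMSO replicate 1 the edgeR test called 17 of the 30 (9 higher, 8 lower) against 43.5% of all tested genes. Without DMSO replicate 2 it called 1, *FDFT1*, lower, against 11.9% of all tested genes. Without dTAG replicate 1 it called 0 of the 30 (1.09% of all tested genes), with 0 at an unadjusted p under 0.05 (11.3%). Without dTAG replicate 2 it called 0 (0.547%), with 3 at an unadjusted p under 0.05 (5.81%).

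Under TMM scaling, the fit also gave an interval for the size of each change. These intervals do not cover the choice of scaling or the GC content trend. With ERCC totals as library sizes the median log2 fold change of the 30 genes was 0.62. With GC content and length trends removed some values, *FASN* at 0.12 among them, lay outside their TMM intervals. The values that follow are those of the TMM fit. Log2 fold changes ran from -0.49 to 0.38 with a median of -0.030, against -0.015 for all tested genes. Of the 30 genes, 12 were above 0 and 18 below, and of all 12612 tested genes 6010 and 6602. The SE of the 30 genes ran from 0.0814 to 0.157. For 28 of 30 genes (93.3%) the 95% interval of the fold change lay wholly within 1.5-fold in either direction, as it did for 79.3% of all tested genes. The 2 exceptions were *INSIG2* (0.08 to 0.68 on the log2 scale) and *TM7SF2* (-0.82 to -0.16). The dTAG libraries did not overlap the DMSO libraries for 19 of 30 genes, against 58.8% of all tested genes. Both lay above both DMSO libraries for 8 genes (28.1% of all tested genes) and below for 11 (30.7%). For 17 of 30 genes the gap between replicates of 1 group was larger than the fold change, much the same share (56.7%) as among all tested genes (56.8%).

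Summed over the pathway and over each of its 3 enzyme arms, the groups overlapped. All 30 genes together had 4259 and 4183 CPM with DMSO and 4314 and 4122 CPM with dTAG. The enzymes of the mevalonate arm summed to 271 and 264 CPM with DMSO and 285 and 269 CPM with dTAG, those of the squalene and sterol arm to 590 and 549 against 578 and 524 CPM, and those of the fatty acid arm to 2620 and 2547 against 2678 and 2569 CPM. The 5 SREBP control genes, to which *SREBF1* and *SREBF2* gave most, summed to 728 and 784 CPM with DMSO and 721 and 715 CPM with dTAG, and there the groups did not overlap. Relative to the DMSO mean, the median gene stood at 0.012 and -0.012 in the DMSO libraries and at 0.018 and -0.081 in the dTAG libraries on the log2 scale, so that dTAG replicate 2 was the lowest of the 4.

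**Figure D2:**
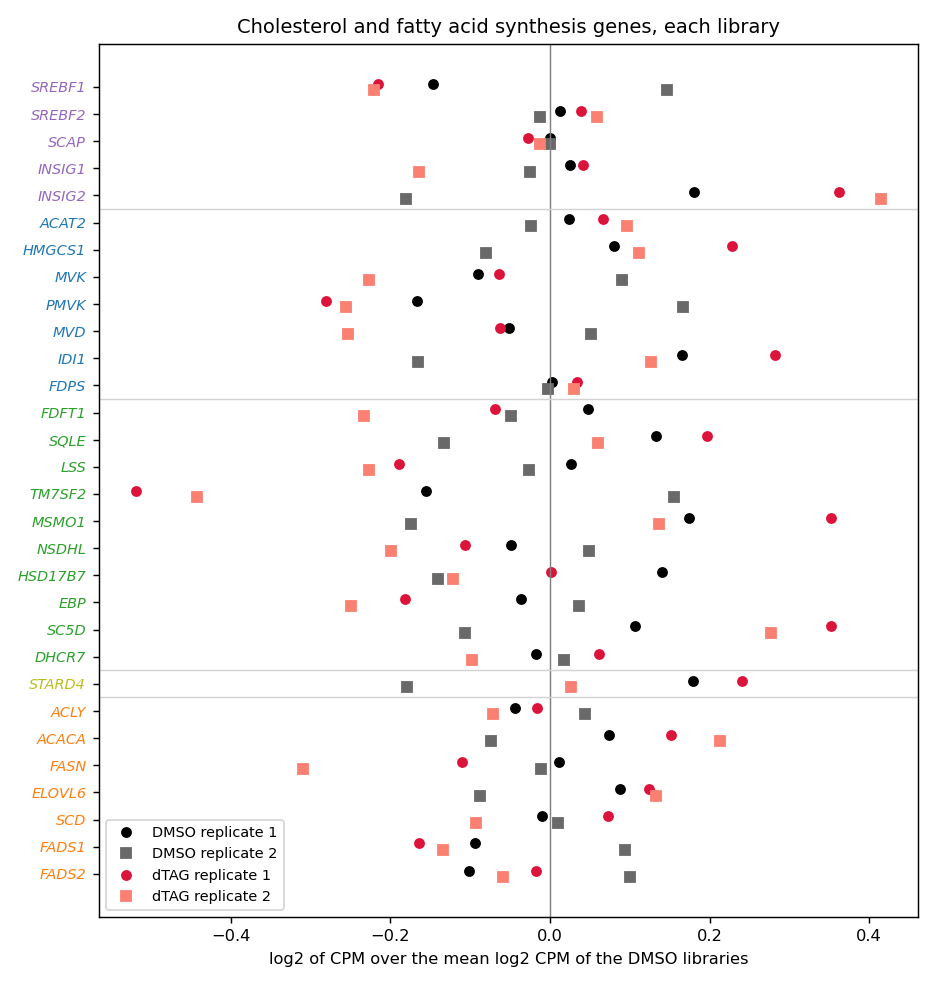
Log2 CPM of each tested gene in each library relative to the average DMSO value, with gene names colored by role as for the levels. Circles are replicate 1 and squares replicate 2, dark for DMSO and red for dTAG. The dTAG libraries lie apart from both DMSO libraries for 19 of the 30 genes, and DMSO replicate 1 and DMSO replicate 2 are themselves well apart at *INSIG2*, *TM7SF2*, *PMVK* and *MSMO1*.

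Among the genes that control SREBP, *SREBF2* and *SCAP* had values near 0, *SREBF1* a value below 0 and *INSIG2* the highest of the pathway. *SREBF2* (ENSG00000198911.11, chromosome 22, 41833078 to 41907308, hg38), the main driver of sterol synthesis genes, had 267 and 263 CPM with DMSO and 272 and 276 CPM with dTAG. Its log2 fold change was 0.05 (SE 0.0893, 95% interval -0.14 to 0.24, edgeR quasi-likelihood test, Benjamini-Hochberg adjusted p = 0.75). Both dTAG libraries were above both DMSO libraries, by a few CPM only. *SCAP* (ENSG00000114650.18, chromosome 3, 47413693 to 47477126), the sterol-sensing escort, had 92.2 CPM in both DMSO libraries and 90.5 and 91.4 CPM with dTAG. Its log2 fold change was -0.02 with a 95% interval of -0.19 to 0.15, the smallest SE of the pathway (0.0814).

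*SREBF1* (ENSG00000072310.16, chromosome 17, 17810398 to 17837002), the driver of fatty acid synthesis genes, had 286 and 351 CPM with DMSO and 273 and 272 CPM with dTAG. The dTAG libraries matched each other and lay below both DMSO libraries, but the DMSO libraries differed more from each other than the lower one did from dTAG. The log2 fold change was -0.23 (SE 0.101, edgeR quasi-likelihood test, Benjamini-Hochberg adjusted p = 0.159). It ran from -0.37 without DMSO replicate 1, where the gene was called lower, to -0.073 without DMSO replicate 2. The gene is 58.0% GC, and with each library's trend on GC content and gene length removed it was -0.01. At its end *SREBF1* shares 1056 bases with *RAI1* on the opposite strand.

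*INSIG1* (ENSG00000186480.12, chromosome 7, 155297775 to 155310235), itself a classic SREBP target, had 72.4 and 69.9 CPM with DMSO and 73.2 and 63.5 CPM with dTAG, and the groups overlapped. On the log2 scale the fold change was -0.06 (SE 0.0889, 95% interval -0.24 to 0.13). *INSIG2* (ENSG00000125629.14, chromosome 2, 118088451 to 118110997), the paralog that is less tied to SREBP, had 10.4 and 8.09 CPM with DMSO and 11.8 and 12.2 CPM with dTAG. Both dTAG libraries were above both DMSO libraries, which differed from each other by 0.36 on the log2 scale. The log2 fold change of 0.38 (SE 0.144) was the highest of the pathway (edgeR quasi-likelihood test, Benjamini-Hochberg adjusted p = 0.103). With a factor drawn from the ERCC spike-ins in the model, it was 0.056. It was 0.27 with the GC content and length trends removed, 0.57 without DMSO replicate 1, where the gene was called higher, and 0.21 without DMSO replicate 2.

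In the mevalonate arm 4 of 7 genes had values above 0 and 3 below, with a median log2 fold change of 0.03. None of the 7 passed an unadjusted p under 0.05, beside 26.6% of all tested genes. *HMGCS1*, which condenses acetyl-CoA and acetoacetyl-CoA to HMG-CoA, had 86.7 and 77.5 CPM with DMSO and 96.0 and 88.6 CPM with dTAG, a log2 fold change of 0.17 (95% interval -0.01 to 0.35). *ACAT2*, the acetoacetyl-CoA thiolase, stood at 0.08, *IDI1*, the isomerase of the isoprenoid unit, at 0.20 and *FDPS* at 0.03 on the log2 scale. The kinases and decarboxylase of mevalonate were on the other side, *MVK* at -0.15 and *MVD* at -0.16. *PMVK* (ENSG00000163344.5, chromosome 1, 154924733 to 154936991), phosphomevalonate kinase, was among the 3 lowest genes of the pathway. It had 11.5 and 14.5 CPM with DMSO and 10.6 and 10.8 CPM with dTAG. Its dTAG libraries lay below both DMSO libraries, which were farther from each other than the lower one was from dTAG. The log2 fold change was -0.28 (SE 0.138, edgeR quasi-likelihood test, Benjamini-Hochberg adjusted p = 0.202). It was -0.44 without DMSO replicate 1, where the gene was called lower, and -0.10 without DMSO replicate 2.

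The squalene and sterol arm held the most spread values, with a median of -0.11 over 10 tested genes, 3 above 0 and 7 below. *SC5D* (ENSG00000109929.9, chromosome 11, 121292452 to 121308694), the lathosterol desaturase near the end of the pathway, had 25.7 and 22.2 CPM with DMSO and 30.5 and 28.9 CPM with dTAG. Both dTAG libraries were above both DMSO libraries. The log2 fold change was 0.31 (SE 0.107, 95% interval 0.09 to 0.53, edgeR quasi-likelihood test, Benjamini-Hochberg adjusted p = 0.0755). DESeq2 gave an adjusted p of 0.0494, and over all settings it ran from 0.000164 to 0.851. *MSMO1* (ENSG00000052802.12, chromosome 4, 165327622 to 165343160), the methyl sterol oxidase, had 65.0 and 51.0 CPM with DMSO and 73.6 and 63.3 CPM with dTAG. The groups overlapped, since DMSO replicate 1 was above dTAG replicate 2. This gave a log2 fold change of 0.24 (SE 0.105, edgeR quasi-likelihood test, Benjamini-Hochberg adjusted p = 0.153). With the ERCC factor it was 0.013. It was 0.42 without DMSO replicate 1, where the gene was called higher, and 0.073 without DMSO replicate 2.

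*TM7SF2* (ENSG00000149809.14, chromosome 11, 65111844 to 65116384), a sterol C14 reductase, had the lowest value of the pathway. It had 7.41 and 9.19 CPM with DMSO and 5.76 and 6.07 CPM with dTAG, all from 548 to 917 counts. Both dTAG libraries lay below both DMSO libraries. The log2 fold change was -0.49 (SE 0.157, edgeR quasi-likelihood test, Benjamini-Hochberg adjusted p = 0.0612). DESeq2 gave an adjusted p of 0.0407, and over all settings it ran from 0.000251 to 0.759. The gene is 60.2% GC, and with GC content and length trends removed the value was -0.20. It overlaps the end of *VPS51* by 17 bases on the same strand, and *VPS51* had a log2 fold change of -0.24.

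The other sterol genes lay between these ends. *LSS* (lanosterol synthase) stood at -0.21, *EBP* (the sterol isomerase) at -0.22, *NSDHL* (the sterol dehydrogenase of C4 demethylation) at -0.15 and *HSD17B7* (its partner ketoreductase) at -0.06 on the log2 scale. *FDFT1*, which commits farnesyl diphosphate to sterols, had 238 and 223 CPM with DMSO and 219 and 196 CPM with dTAG, a log2 fold change of -0.15 (95% interval -0.34 to 0.04). *SQLE* (squalene epoxidase) stood at 0.12 and *DHCR7*, which makes cholesterol from 7-dehydrocholesterol, at -0.02. *STARD4*, a carrier that moves cholesterol between membranes, had 44.5 ± 7.79 CPM with DMSO and 48.6 ± 5.10 CPM with dTAG (SD, n = 2), and its log2 fold change of 0.13 (95% interval -0.10 to 0.35) was smaller than the gap between the DMSO libraries.

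In the fatty acid arm none of the 7 genes passed an unadjusted p under 0.05, beside 26.6% of all tested genes. The median log2 fold change was -0.04. *ACACA*, acetyl-CoA carboxylase and the longest gene of the pathway, had 845 and 763 CPM with DMSO and 892 and 931 CPM with dTAG, a log2 fold change of 0.18 (95% interval -0.04 to 0.40). *FASN* lay on the other side, with 494 and 487 CPM with DMSO and 454 and 395 CPM with dTAG. The log2 fold change was -0.21 (95% interval -0.42 to 0.0021), and with GC content and length trends removed it was 0.12, a reversed sign in a gene that is 66.7% GC. *SCD* had 708 and 717 CPM with DMSO and 749 and 668 CPM with dTAG, so that the dTAG libraries stood on either side of the DMSO libraries, and its log2 fold change was -0.0072. *ACLY*, which supplies cytosolic acetyl-CoA from citrate, stood at -0.04, the elongase *ELOVL6* at 0.13, and the desaturases *FADS1* and *FADS2* at -0.15 and -0.04. *FADS1* lies wholly inside *FADS2* on the opposite strand, and *FADS2* shares 4266 bases with *FEN1* on its own strand, and how those bases were counted is not stated.

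**Figure D3:**
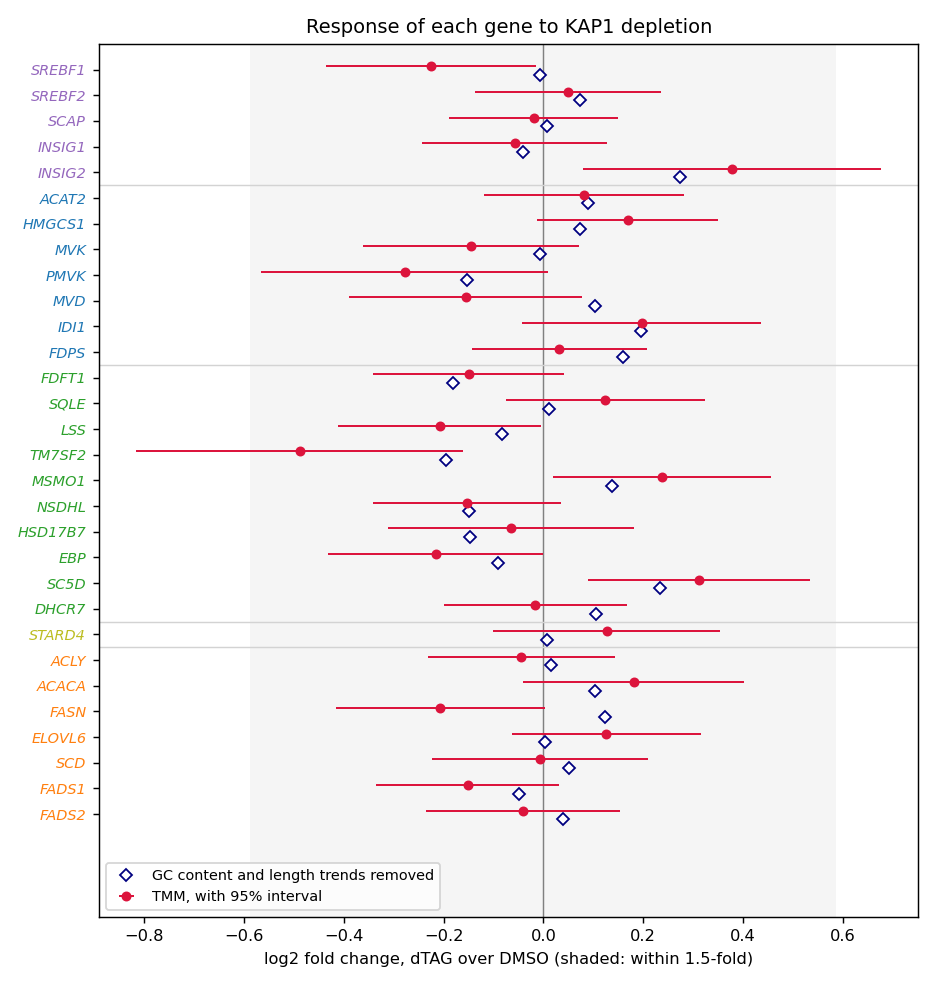
Log2 fold change, dTAG over DMSO, of the 30 tested genes with 95% intervals (red circles) and with trends on GC content and gene length removed (open diamonds), gene names colored by role. The shaded band marks 1.5-fold in either direction, which holds the whole interval of 28 genes. *INSIG2* and *TM7SF2* reach past it, and their diamonds lie closer to 0 than their circles.

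GC content ordered the fold changes within the pathway as it did in the whole table. Across the 30 genes, Spearman's rho between log2 fold change and the GC content of the gene interval was -0.77, and it was -0.56 across all tested genes. Genes of 1 set of libraries are not independent, so no p is given. The same property ordered the 2 control libraries: the log2 ratio of DMSO replicate 2 to DMSO replicate 1 had a rho of 0.83 with GC content over the 30 genes and 0.75 over all tested genes. Of the 8 pathway genes under 40% GC, 7 were above 0, with a median of 0.15 against 0.13 for all tested genes in that range. Of the 10 genes over 50% GC, 9 were below 0, with a median of -0.15 against -0.19 for all tested genes in that range. The 12 genes in between had a median of -0.03 against 0.02.

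With each library's trends on GC content and then gene length removed, the spread of the 30 log2 fold changes narrowed from an SD of 0.192 to 0.121, and the range became -0.20 to 0.27. In that setting 2 of 30 genes were called in the edgeR quasi-likelihood test (Benjamini-Hochberg), against 18.1% of all tested genes. *SC5D* was higher with dTAG, at 0.23 (adjusted p = 0.0349), and *FDFT1* lower, at -0.18 (adjusted p = 0.0299, range over all settings 0.0299 to 0.986). *SC5D* thus kept its side and most of its size, while *SREBF1* and *TM7SF2* lost much of theirs and *FASN* changed sides. The part of GC content in these values was not tested beyond this removal.

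**Figure D4:**
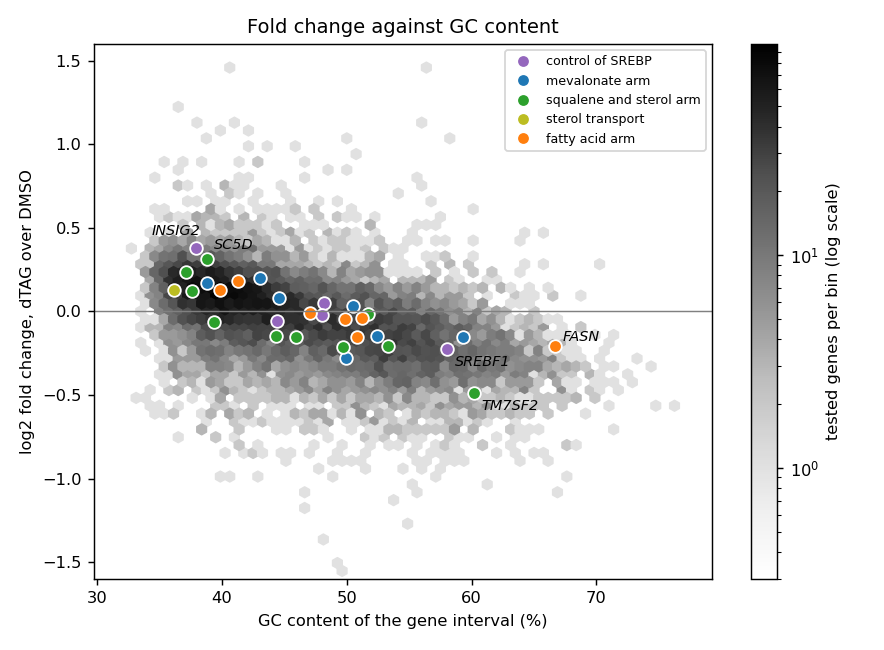
Log2 fold change against GC content of the gene interval, with the 30 lipid synthesis genes as colored points over the density of all 12612 tested genes (gray, log scale). The colored points follow the slope of the gray cloud, from *INSIG2* and *SC5D* at the AT-rich end to *TM7SF2* and *FASN* at the GC-rich end.

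A wider set of 40 genes around this pathway was read beside it, of which 39 passed the count minimum. In the edgeR quasi-likelihood test (Benjamini-Hochberg), 6 of the 39 were called, 2 higher and 4 lower with dTAG, a share of 15.4% beside 7.1% of all tested genes. The wider set was chosen with earlier results of these data known, so these shares are a description only. It was not tested against the synthesis genes. With library sizes set to the ERCC spike-in totals, which put the median of all genes at 0.63 on the log2 scale, the 4 genes called lower had values from 0.10 to 0.32, below that median, and 0 of the 39 genes was called or passed an unadjusted p under 0.05.

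Of 8 tested genes of cholesterol handling and of LXR, the receptor that answers to high sterols, 2 were called lower and none higher. Among all tested genes 3.66% were called lower and 3.44% higher. *NPC1* and *SOAT1* lay on the other side, at 0.26 and 0.11 on the log2 scale, and were not called. *ABCG1*, a cholesterol exporter, had 9.24 and 11.6 CPM with DMSO and 6.49 and 7.34 CPM with dTAG, and the groups did not overlap. Its log2 fold change was -0.60 (SE 0.153, edgeR quasi-likelihood test, Benjamini-Hochberg adjusted p = 0.0228), the largest fall among the called genes. *MYLIP*, the ubiquitin ligase that LXR induces to remove lipoprotein receptors, had 56.2 and 53.7 CPM with DMSO and 43.8 and 44.2 CPM with dTAG. Its libraries were tight within each group, and the log2 fold change was -0.32 (adjusted p = 0.0325, edgeR). Both were called lower with GC content and length trends removed as well, at -0.52 and -0.39. With the ERCC factor *MYLIP* was called lower, at -0.42, and *ABCG1*, at -0.43, was not called. The median of the 8 genes was -0.20 with 6 below 0, where 6602 of all 12612 tested genes were below 0. Over the other settings it ran from -0.29 to -0.12 with 6 or 7 below 0, apart from ERCC totals, where the 8 genes were above 0 with a median of 0.48.

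Among 8 genes of SREBP cleavage and sterol-regulated degradation, 8 values were above 0, with a median of 0.15. Of all 12612 tested genes, 6010 were above 0. The 8 genes had a median GC content of 41.6%. Above 0 were 2382 of the 3071 tested genes under 40% GC and 2970 of the 5485 from 40 to 50% GC. With GC content and length trends removed the median of the 8 was 0.11. With upper-quartile factors 1 of them (*MBTPS1*) and with the ERCC factor 2 (*ERLIN1* and *MBTPS2*) were below 0. *RNF145*, a sterol-responsive ubiquitin ligase, was the 1 gene called. It had 99.6 and 83.3 CPM with DMSO and 113 and 120 CPM with dTAG, a log2 fold change of 0.35 (SE 0.0916, adjusted p = 0.0251, edgeR). The dTAG libraries were above both DMSO libraries. With GC content and length trends removed the value was 0.19, and the gene was still called. It was 0.28 with upper-quartile factors and 0.09 with the ERCC factor, and in neither was the gene called.

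Of 14 genes of fatty acid supply and elongation, 1 was called higher and 2 lower, beside 3.44% and 3.66% of all tested genes. *HSD17B12*, the ketoreductase of very long chain elongation, had 282 and 237 CPM with DMSO and 337 and 344 CPM with dTAG, a log2 fold change of 0.39 (SE 0.0987, adjusted p = 0.0211, edgeR). With GC content and length trends removed it was 0.25, and the gene was still called. With the ERCC factor it was 0.15, and the gene was not called. *MID1IP1*, which promotes the polymerization of acetyl-CoA carboxylase, had 75.9 and 94.0 CPM with DMSO and 69.7 and 60.3 CPM with dTAG, a log2 fold change of -0.39 (SE 0.1, adjusted p = 0.0246, edgeR). It was -0.19 with GC content and length trends removed, and the gene was called there too. With the ERCC factor it was -0.13, and the gene was not called. *SLC25A1*, the mitochondrial citrate carrier, had 21.3 and 24.3 CPM with DMSO and 18.5 and 16.2 CPM with dTAG. Its log2 fold change of -0.40 (adjusted p = 0.0461, edgeR) became -0.01 with GC content and length trends removed, in a gene that is 67.5% GC. With the ERCC factor it was -0.24. *SLC25A1* was called in neither setting. Without dTAG replicate 1 or dTAG replicate 2, none of the 6 genes was called. In each case 5 of the 39 passed an unadjusted p under 0.05, beside 11.3% and 5.81% of all tested genes.

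**Figure D5:**
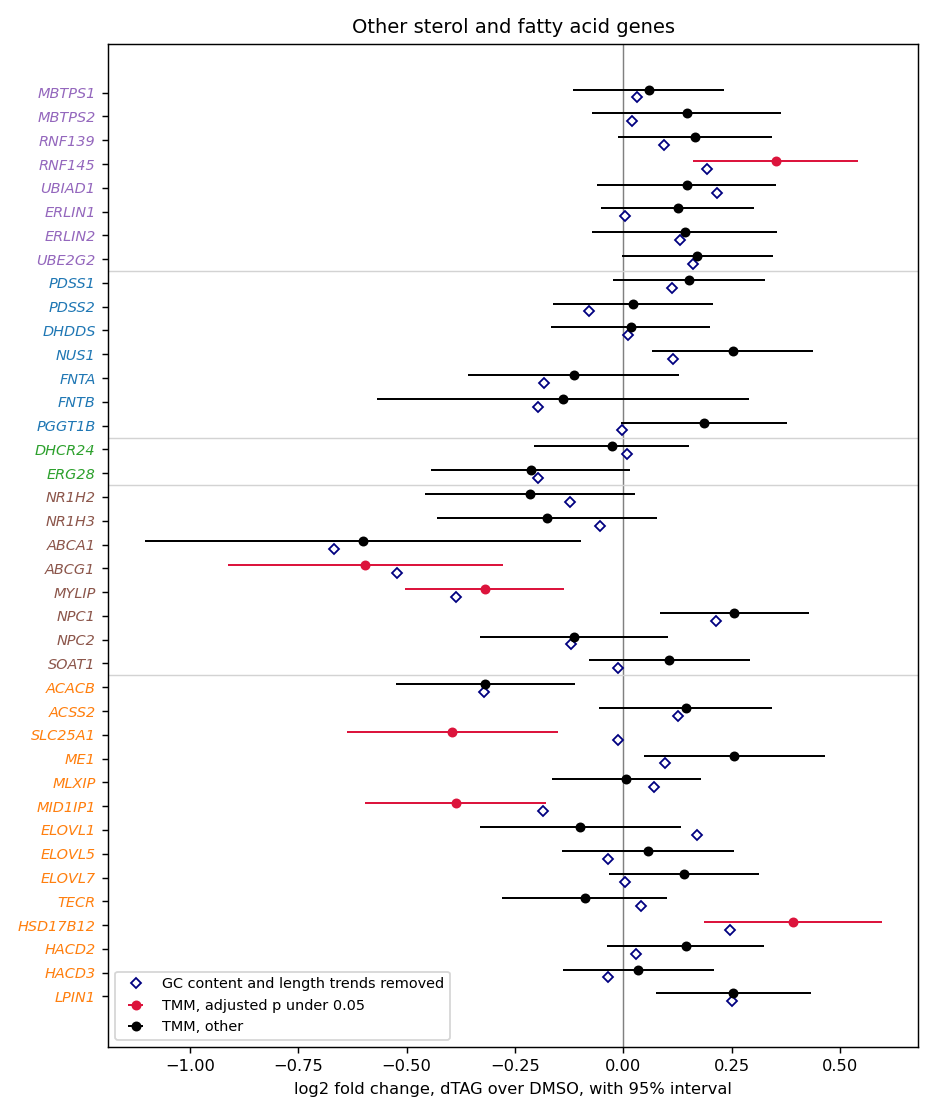
Log2 fold change, dTAG over DMSO, with 95% intervals for 39 other genes of sterol and fatty acid metabolism, called genes in red, and values with GC content and length trends removed as open diamonds. Gene names are colored by role, from the top SREBP cleavage and degradation, prenyl branches, other sterol synthesis, LXR and cholesterol handling, and fatty acid supply and elongation. *ABCG1*, *MYLIP* and *MID1IP1* stay below 0 and *RNF145* and *HSD17B12* above 0 on both scales, while *SLC25A1* moves to 0.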

How the data were processed

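TT-Seq libraries of HCT116 KAP1_dTAG_CloneD5 cells (2 DMSO, 2 dTAG) were compared. Reads were trimmed (Trim Galore 0.6.4), aligned to hg38 and assigned by featureCounts (Subread 1.6.3) to whole protein-coding genes and to ERCC spike-ins by the authors, and the deposited values are raw counts, not normalized. The tools used here were R 4.3.3, edgeR 4.0.16, DESeq2 1.42.0 and Python 3.11.15. Testing was limited to genes that reached 50 counts in each of the 4 libraries. TMM scaling was used, since the spike-in function of the authors is not given in the sources used here, with factors of 1.00 and 1.05 (DMSO) and 0.979 and 0.970 (dTAG). P-values are from the edgeR quasi-likelihood test, two-sided and Benjamini-Hochberg adjusted, without a replicate block. They measure only the spread between these libraries. The SE is the log2 fold change over the root of F. Precision was limited by 2 libraries per group more than by depth. Symbols were matched for 19784 genes. One gene of the wider set is not reported here. The member and gene lists were chosen with earlier results of these data known. Named in full were called genes, the 3 highest and 3 lowest members, the SREBP control genes and, of the wider set, called genes. Alternatives were DESeq2, upper-quartile factors, ERCC totals, an ERCC factor from 14 RNAs, a likelihood ratio test, other count filters, a replicate block, removal of GC content and length trends by lowess (span 0.3), and leaving out each library. The fitting steps were tested on simulated data.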

Additional observations from a re-analysis of the deposited data

How the results depend on the processing

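With only 2 libraries per group, single libraries decided the counts of calls. Leaving out each library in turn gave 48 to 2798 genes higher and 21 to 2693 lower in all, 0 to 9 higher and 0 to 8 lower among the 30 lipid synthesis genes, and 0 to 13 higher and 0 to 8 lower in the wider set, each maximum without DMSO replicate 1; a lone library was then assumed to vary like the other group. The cause was not tested. Upper-quartile factors gave 255 genes higher and 869 lower, beside 434 and 461, with 1 pathway gene lower (*TM7SF2*), 1 gene of the wider set higher and a pathway median of -0.10. DESeq2 gave 691 higher, with 1 pathway gene higher and 1 lower and 4 of the wider set higher. The likelihood ratio test gave 729 and 864, with 1 and 1 pathway genes and 4 of the wider set higher. No count filter gave 673 and 744, with 2 pathway genes higher and 1 lower. The ERCC factor gave 744 genes lower, 1 pathway gene lower (*FDFT1*) and 1 of the wider set lower. Removal of GC content and length trends gave 1343 and 941, with 1 and 1 pathway genes and 6 of the wider set higher.

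ERCC totals as library sizes left 0 genes higher and 0 lower in all and in the wider set by edgeR, with 229 of all genes and 1 of the pathway at an unadjusted p under 0.05, gave medians of 0.63 over all tested genes and 0.62 over the pathway, and so reversed the sign of genes that were below 0. The values became 0.46 for *SREBF1*, 0.63 for *SCAP*, 0.57 for *INSIG1*, 0.51 for *MVK*, 0.41 for *PMVK*, 0.49 for *MVD*, 0.47 for *FDFT1*, 0.43 for *LSS*, 0.20 for *TM7SF2*, 0.50 for *NSDHL*, 0.54 for *HSD17B7*, 0.43 for *EBP*, 0.62 for *DHCR7*, 0.61 for *ACLY*, 0.42 for *FASN*, 0.63 for *SCD*, 0.52 for *FADS1*, 0.63 for *FADS2*, 0.10 for *ABCG1*, 0.32 for *MYLIP*, 0.26 for *SLC25A1*, 0.28 for *MID1IP1* and 0.020 for *ABCA1*. Other settings also reversed signs, of *FASN* (-0.21), *IDI1* (0.20), *MVD* (-0.16) and *STARD4* (0.13) among them. The values were -0.022 for *SREBF2*, -0.0083 for *ACAT2*, -0.035 for *IDI1*, -0.015 for *FDPS*, -0.069 for *SQLE*, 0.015 for *DHCR7*, -0.11 for *STARD4*, -0.051 for *ELOVL6*, 0.014 for *SCD* and 0.082 for *FADS2* with the ERCC factor; -0.024 for *SREBF2* and -0.042 for *FDPS* with upper-quartile factors; 0.0046 for *SCD* with DESeq2 and 0.0018 with a filter of 10 counts in 2 libraries. With GC content and length trends removed they were 0.0074 for *SCAP*, 0.10 for *MVD*, 0.11 for *DHCR7*, 0.015 for *ACLY*, 0.12 for *FASN*, 0.050 for *SCD* and 0.039 for *FADS2*. Over the leave-one-out fits the range was -0.20 to 0.083 for *HSD17B7*, -0.0036 to 0.26 for *SQLE*, -0.095 to 0.061 for *DHCR7*, -0.043 to 0.32 for *STARD4*, -0.089 to 0.073 for *SCD*, -0.14 to 0.062 for *FADS2* and -0.16 to 0.041 for *INSIG1*. *TM7SF2* (-0.64 to -0.33), *INSIG2* (0.21 to 0.57) and *SC5D* (0.21 to 0.42) kept their sign in all 4.

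The replicate numbers mark no shared batch in the labels, and deviations of same-numbered libraries correlated at -0.247. A fit with the replicate block gave 162 genes higher and 178 lower in all, 0 pathway genes (4 at an unadjusted p under 0.05), and 0 higher and 1 lower (*MID1IP1*) in the wider set. A block with the numbers crossed, chosen after seeing the data, gave 1587 and 1603 in all, 3 and 3 pathway genes and 7 higher in the wider set.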

Other observations

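The prenyl branches, which lead from farnesyl diphosphate to ubiquinone side chains, dolichol and protein prenylation, held 7 tested genes of 8. The edgeR quasi-likelihood test (Benjamini-Hochberg) and DESeq2 each called 0 of them, against 7.1% and 10.1% of all tested genes. In edgeR 1 gene was at an unadjusted p under 0.05 (26.6% of all tested genes). That gene, *NUS1*, a subunit of the dolichol-making prenyltransferase, had 102 and 86.4 CPM with DMSO and 111 and 113 CPM with dTAG, a log2 fold change of 0.25 (95% interval 0.07 to 0.44). *GGPS1*, geranylgeranyl diphosphate synthase, had 3 to 14 counts and was not tested, and it overlaps another gene on its own strand as *CYP51A1* does. In cholesterol handling, *NPC1*, which exports cholesterol from lysosomes, had 120 and 118 CPM with DMSO and 143 and 140 CPM with dTAG, and *ABCA1*, the exporter beside *ABCG1*, had 1.74 and 1.51 CPM with DMSO and 1.09 and 1.05 CPM with dTAG. Neither passed the adjusted threshold (adjusted p = 0.0624 and 0.122, edgeR). *NPC1* was called higher by DESeq2, by the likelihood ratio test, with the ERCC factor, without either DMSO library, with the crossed block and with GC content and length trends removed (adjusted p = 0.00274), and *ABCA1* lower with those trends removed (adjusted p = 0.0419). Both, like *NUS1*, were chosen after their values were seen. The groups of both did not overlap.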
